A study of Mus musculus with 12 samples.

Results

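Axon guidance ligands and receptors are the secreted and membrane proteins with which a growing axon reads its surroundings. The 70 genes described here, of 23951 genes in the table, were all those whose symbol starts with the name of a semaphorin, plexin, ephrin, Eph receptor, Slit, Robo or Unc5 family, together with Ntn1, Ntn4, Dcc, Neo1, Nrp1 and Nrp2. They hold 33 ligand genes and 35 receptor genes. The other 2 were picked up by their symbols: Plxna4os1 is an RNA read from the opposite strand of the Plxna4 locus, and Unc5cl encodes an UNC5C-like protein that is not a netrin receptor. Slitrk genes were left out by the rule, and Unc50, an unrelated gene, was not taken as a member of the Unc5 family.

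Cochlear RNA of 129S2/SvPas:C57BL/6 mice was sequenced in 12 libraries, with 3 in each of 4 groups. At 5 months the groups were Dusp1-/- mice (KO, libraries E7, F18 and F19) and wild type mice (WT, libraries E1, E3 and E4), and at 8 months they were KO (F5, F6 and F27) and WT (F1, F10 and F12). Dusp1 encodes a phosphatase that switches off the stress-activated kinases p38 and JNK, and the study asked how its loss alters the cochlear transcriptome. The mice were of mixed background and untreated, and the codes are those of the library labels. Below, 3 values in a row follow the order of libraries just given, and levels are in FPKM, fragments scaled to transcript length and to the mapped reads of the library, which allow genes to be compared per length.

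Semaphorins signal through plexins, and the secreted class 3 members mostly need neuropilins as co-receptors. Ephrins are bound to the membrane and signal through Eph receptors on the neighbouring cell. Slits repel axons through Robo receptors, and netrins attract them through Dcc or Neo1 and repel them through Unc5 receptors. In the developing mouse cochlea, Sema3f with Nrp2, Efnb2 with Epha4, and Slit2 with Robo1 and Robo2 are known to place the spiral ganglion neurons and their fibres, and many members act in blood vessels as well.

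Some properties of the libraries bear on what follows. The FPKM of a library added up to 500343 to 583072, and no read numbers were used here, so their depth is unknown. In the libraries labelled KO the level of Dusp1 was higher, with 61.9, 81.5 and 75.3 FPKM against 60.8, 47.6 and 29.5 FPKM in WT at 5 months, and 55.6, 73.7 and 57.1 FPKM against 43.0, 38.3 and 38.6 FPKM in WT at 8 months. Gene-level FPKM do not tell a disrupted transcript from an intact one, and KO and WT mean the labels throughout, so every direction below rests on them. The cochlear tissue markers, 10 genes such as Coch and Otog, summed to 4170 to 6250 FPKM and none was at 0. The 10 hair cell markers summed to 76.2 to 117 FPKM, again with none at 0. Xist was at 34.9 to 52.4 FPKM in E4, F6, F27 and F1 and at most at 0.0935 FPKM in the other 8 libraries, so both sexes were present.

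Cell mixtures differed between libraries. The 12 neutrophil markers summed to 22900, 4150 and 7340 FPKM in KO and 615, 679 and 70.6 FPKM in WT cochleae at 5 months, and to 16800, 893 and 1280 FPKM in KO and 938, 686 and 4620 FPKM in WT cochleae at 8 months. The 10 markers of central glia summed to 110, 98.2 and 144 FPKM in KO and 191, 120 and 209 FPKM in WT cochleae at 5 months, and to 114, 131 and 155 FPKM in KO and 169, 157 and 133 FPKM in WT cochleae at 8 months. Summed neuron markers were 1560 to 1810 FPKM in KO and 2000 to 2110 FPKM in WT cochleae at 5 months, and 1890 to 2210 FPKM in KO and 1950 to 2270 FPKM in WT cochleae at 8 months. The 10 B cell markers summed to 169, 56.7 and 113 FPKM in KO and 42.4, 43.1 and 34.6 FPKM in WT cochleae at 5 months, and to 70.1, 48.4 and 48.2 FPKM in KO and 41.3, 48.2 and 102 FPKM in WT cochleae at 8 months. Of these 4 lists, only the B cell genes Vpreb1 and Igll1 were at 0 in any library. In RNA of a whole organ, fewer cells of a type and less RNA per cell cannot be told apart.

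The guidance genes were broadly expressed in the adult cochlea. A mean of at least 0.5 FPKM, the minimum for testing, was reached by 66 of 70, and the 4 below it were Epha6 (0.245 FPKM), Robo3 (0.139 FPKM), Unc5cl (0.330 FPKM) and Plxna4os1 (0.351 FPKM). All members of a library summed to 651 to 790 FPKM. Ligands made up 361 to 454 FPKM of this and receptors 269 to 336 FPKM. By family the 20 semaphorins summed to 252 to 320 FPKM, the 9 plexins to 109 to 140 FPKM and the 2 neuropilins to 43.9 to 54.9 FPKM. The 4 Robo receptors reached 17.3 to 20.1 FPKM and the 4 Unc5 receptors 12.4 to 23.1 FPKM.

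**Figure D1:**
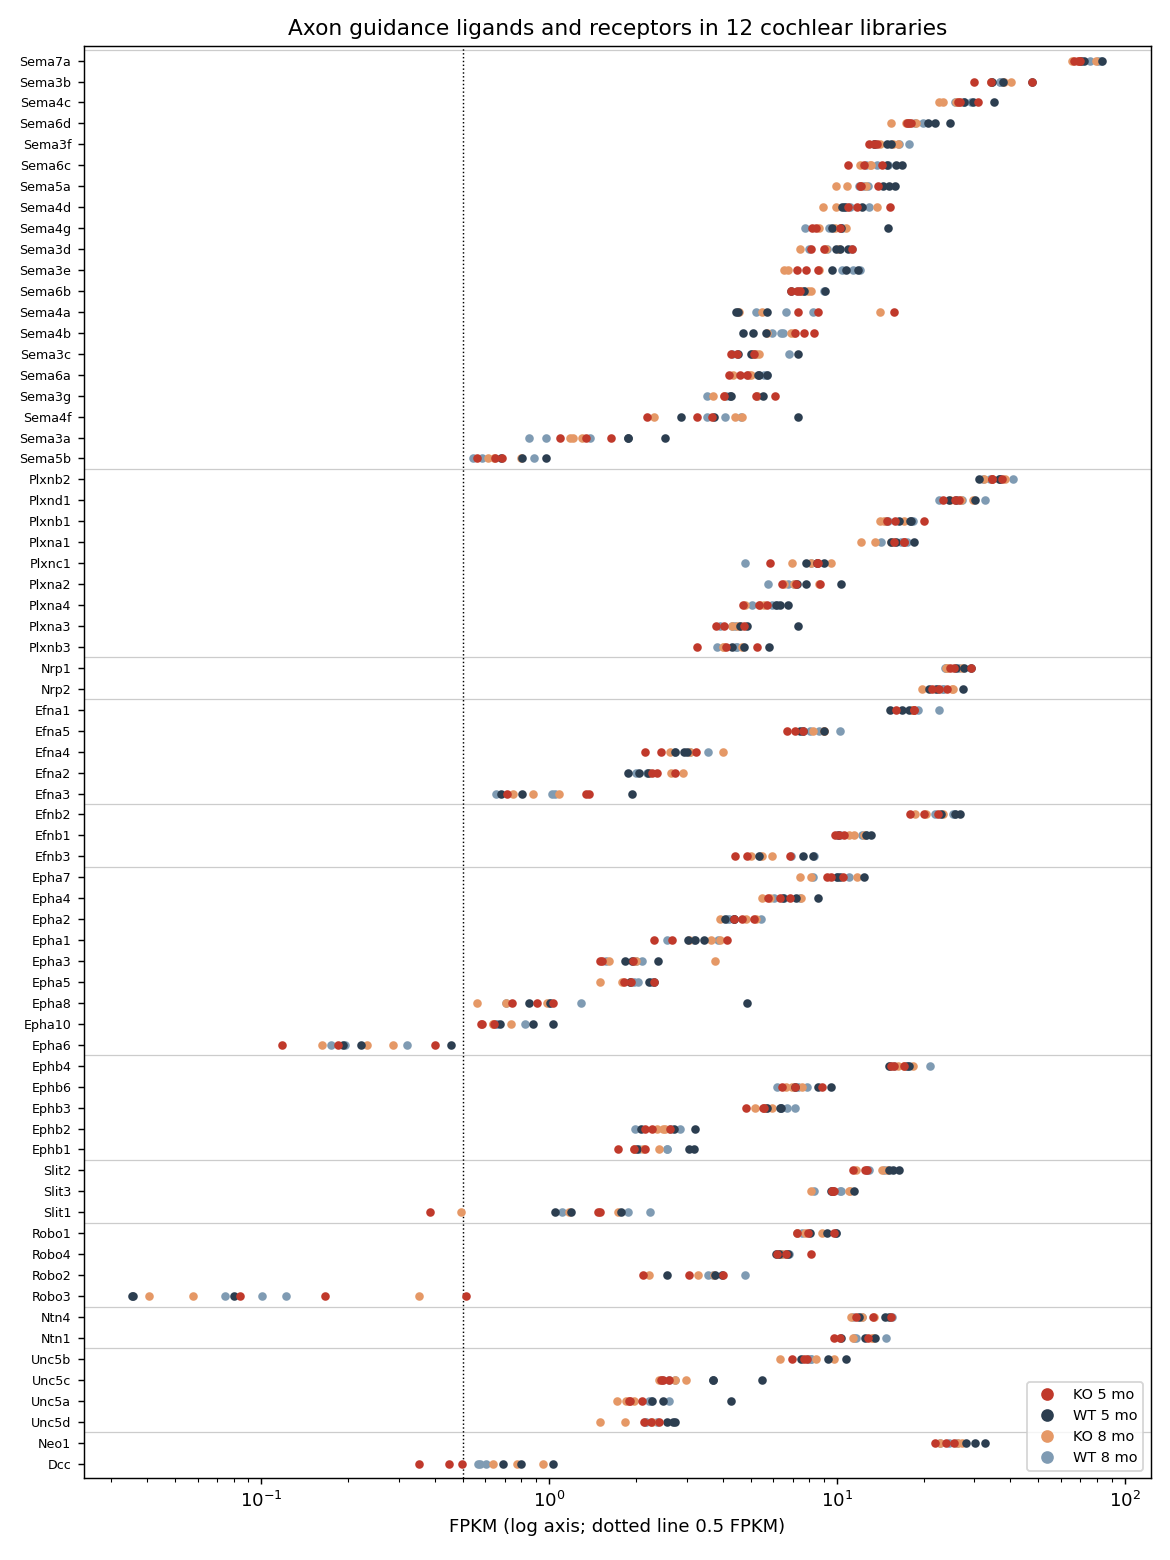
Level of 68 ligand and receptor genes in each of the 12 libraries, by family (rows) and FPKM on a log axis; each point is a library, coloured by group, and the dotted line marks the 0.5 FPKM needed for testing. Sema7a stands highest at a mean of 73.6 FPKM, and Epha6 and Robo3 lie under the line by their means.

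The most abundant member was Sema7a, a membrane-anchored semaphorin that binds integrins and Plxnc1. Sema7a had 68.9, 66.4 and 69.9 FPKM in KO and 70.4, 72.1 and 83.2 FPKM in WT cochleae at 5 months, and 65.3, 69.1 and 79.5 FPKM in KO and 82.6, 80.3 and 75.6 FPKM in WT cochleae at 8 months. Sema3b, a secreted semaphorin, came next with 34.3, 29.9 and 47.4 FPKM in KO and 34.6, 37.8 and 47.6 FPKM in WT cochleae at 5 months, and 34.1, 40.2 and 37.9 FPKM in KO and 36.7, 34.3 and 36.7 FPKM in WT cochleae at 8 months. KO and WT values of Sema3b overlapped at both ages, while all KO values of Sema7a lay under those of WT at 5 months.

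Plexin B2, the receptor of Sema4c, was the most abundant plexin. Plxnb2 had 34.6, 34.4 and 37.5 FPKM in KO and 36.7, 31.2 and 36.6 FPKM in WT cochleae at 5 months, and 34.5, 32.4 and 38.2 FPKM in KO and 32.1, 40.7 and 33.8 FPKM in WT cochleae at 8 months. Plxnd1, the receptor of Sema3e and a gene of blood vessels, had 25.7, 26.6 and 23.3 FPKM in KO and 24.6, 25.9 and 30.03 FPKM in WT cochleae at 5 months, and 29.7, 24.8 and 27 FPKM in KO and 22.6, 32.8 and 27.1 FPKM in WT cochleae at 8 months. For both plexins KO and WT values overlapped at both ages.

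The neuropilins, co-receptors of class 3 semaphorins, were steady across libraries. Nrp1 had 24.7, 29.2 and 25.5 FPKM in KO and 29.3, 25.9 and 27.5 FPKM in WT cochleae at 5 months, and 27.1, 24.1 and 23.9 FPKM in KO and 23.9, 23.7 and 26.4 FPKM in WT cochleae at 8 months. Nrp2 had 21.4, 24 and 22.6 FPKM in KO and 20.8, 22.1 and 27.4 FPKM in WT cochleae at 5 months, and 25.3, 19.8 and 25 FPKM in KO and 23.4, 23.3 and 22.3 FPKM in WT cochleae at 8 months. The coefficient of variation over all 12 libraries was 7.68% for Nrp1 and 9.15% for Nrp2, and no contrast gave either an unadjusted p under 0.05. Sema3f, the ligand of Nrp2 that keeps spiral ganglion fibres to their inner hair cells in the mouse embryo, had 12.9, 13.4 and 13.8 FPKM in KO and 14.9, 13.5 and 15.4 FPKM in WT cochleae at 5 months, and 14.1, 16.3 and 15.6 FPKM in KO and 13.5, 16.5 and 17.7 FPKM in WT cochleae at 8 months. KO and WT values of Sema3f overlapped at both ages.

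Differences between genotypes were tested with limma on log2(FPKM + 0.5) over 16272 genes, so a change below is a log2 change on that scale with its standard error, n is 3 libraries per group, and the threshold is a Benjamini-Hochberg adjusted p of 0.05 over all genes tested. No member passed this threshold in any of the 6 contrasts. The counts of members at an unadjusted p under 0.05 are therefore given as descriptions beside the share of all genes that reached it.

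At 5 months most guidance genes had lower means in KO than in WT cochleae. All WT codes at this age start with E, while those of KO are E7, F18 and F19. What the letters stand for is not given, and their part was not tested. Of 66 members tested, 55 had a change below 0, against 9004 of all 16272 genes tested. The median was −0.15, against −0.03 over all genes tested. At an unadjusted p under 0.05, 16 members (24.2%) were lower in KO, against 9.93% of all genes, and 2 members (3.03%) were higher, against 8.24% of all genes. With adjustment limma called 0 members and 0.0676% of all genes. The 16 were Unc5c, Neo1, Slit2, Sema3e, Sema6d, Sema6c, Dcc, Sema3a, Efnb2, Sema5a, Sema6a, Plxna4, Unc5a, Ephb1, Plxna3 and Ephb3, and the 2 higher were Sema4b and Sema4a. KO and WT values did not overlap in 17 members that were lower in KO, where 13.8% of all genes did so, and in 4 that were higher, where 11.3% of all genes did so.

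Markers of some cell types also differed between KO and WT at 5 months. All 10 central glial markers and all 12 neuron markers had a change below 0 at 5 months, with medians of −0.53 and −0.27, and 5 and 7 of them had an unadjusted p under 0.05. All 12 neutrophil markers had a change above 0, with a median of 4.91, and so had 9 of 10 B cell markers, with a median of 2.15, and 12 and 9 of them had an unadjusted p under 0.05. Medians of the other lists were −0.22 for hair cell (8 of 10 below 0) and −0.07 for Schwann cell markers (7 of 8 below 0). They were −0.07 for endothelium, −0.05 for cochlear tissue, −0.01 for osteoblast lineage and 0.19 for macrophage markers. With the central glial level as a covariate, 3 members were lower at 5 months (Neo1, Slit2 and Unc5c), and so were 3.14% of all genes. With the neutrophil level as a covariate 8 members were lower, 6 of them among the 16, against 5.16% of all genes. The count of higher members was 1 without E3, E4 or E7, against 5.58%, 6.51% and 3.93% of all genes. Without E7, 9 of the 16 lower ones remained, against 6.01% of all genes, and without E1, E7 and F5 together, a choice made after the data were seen, 7 remained: Dcc, Efnb2, Neo1, Sema3e, Sema6d, Slit2 and Unc5c. In that setting 4.16% of all genes were lower, so the share of all genes fell along with the count of members. At 5 months the neutrophil level did not overlap between KO and WT, and the central glial level had a lower mean in KO. These covariates thus go with genotype, and the fits cannot tell the 2 apart. The part of these cell types in the result was not tested.

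**Figure D2:**
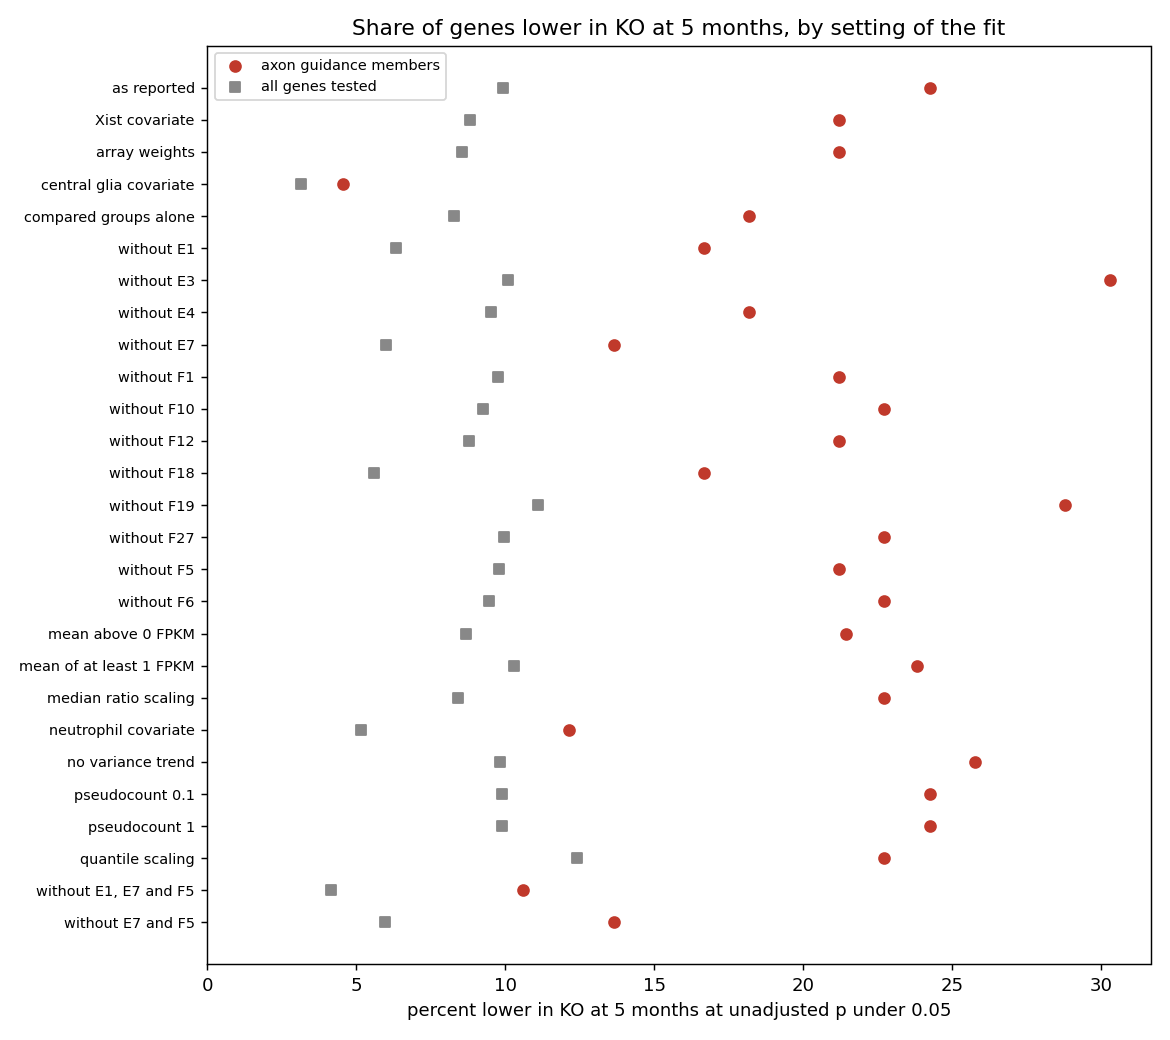
Share of genes lower in KO than in WT at 5 months at an unadjusted p under 0.05 (percent, x axis) for guidance members (circles) and all genes tested (squares), for the fit as reported (top row) and each other setting (rows). The members' share is 24.2% as reported, against 9.93% of all genes, and comes closest to that of all genes with the central glial level as a covariate.

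The netrin receptors had lower means in KO at 5 months. The 4 Unc5 receptors had changes below 0 with a median of −0.37, and Dcc and Neo1 had a median of −0.43. Unc5c, a receptor that turns netrin into a repellent (chr3:141128528-141497886 in mm9, 16 exon blocks), had 2.48, 2.44 and 2.62 FPKM in KO and 5.47, 3.7 and 3.7 FPKM in WT cochleae at 5 months, and 2.4, 2.74 and 2.99 FPKM in KO and 2.47, 2.6 and 2.73 FPKM in WT cochleae at 8 months. At 5 months every KO value was under every WT value, by −0.65 ± 0.14 (adjusted p = 0.146), and E1 was the highest library, without which the change was −0.48. At 8 months the groups overlapped.

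Neo1, a receptor of netrins and of repulsive guidance molecules, had 22, 25.5 and 23.9 FPKM in KO and 30.2, 28 and 32.5 FPKM in WT cochleae at 5 months, and 27.2, 22.7 and 26.2 FPKM in KO and 22.8, 26.1 and 24.5 FPKM in WT cochleae at 8 months. The change at 5 months was −0.34 ± 0.090 (adjusted p = 0.169) with no overlap, and leaving out a library moved it between −0.39 and −0.28. Dcc, the netrin receptor that draws axons to netrin, was near the minimum for testing with 0.496, 0.352 and 0.446 FPKM in KO and 1.03, 0.691 and 0.795 FPKM in WT cochleae at 5 months, and 0.951, 0.773 and 0.638 FPKM in KO and 0.567, 0.60 and 0.572 FPKM in WT cochleae at 8 months. Every KO value lay under WT at 5 months (−0.52 ± 0.17, adjusted p = 0.199) and every KO value lay above WT at 8 months (0.25 ± 0.17, adjusted p = 0.965).

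Unc5b, a receptor of netrins in blood vessels, had 7.67, 7.85 and 6.96 FPKM in KO and 10.8, 7.5 and 9.28 FPKM in WT cochleae at 5 months, and 9.79, 6.34 and 8.43 FPKM in KO and 8.13, 7.91 and 8.13 FPKM in WT cochleae at 8 months. Its groups overlapped at both ages. Of the netrins themselves, Ntn1, which shapes the inner ear in the mouse embryo, had 9.77, 10.3 and 12.8 FPKM in KO and 13.5, 10.3 and 12.5 FPKM in WT cochleae at 5 months, and 11.3, 13.2 and 13.4 FPKM in KO and 11.6, 14.7 and 11.5 FPKM in WT cochleae at 8 months. Ntn4, a netrin of basement membranes, had 11.7, 13.3 and 15.4 FPKM in KO and 15.1, 11.9 and 14.7 FPKM in WT cochleae at 5 months, and 11.2, 12.2 and 13.5 FPKM in KO and 11.3, 15.5 and 12.2 FPKM in WT cochleae at 8 months. Both overlapped between KO and WT at each age.

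Slit2 and several semaphorins of classes 3, 5 and 6 also had lower means in KO at 5 months. Slit2, a secreted repellent of axons, had 12.7, 11.4 and 12.5 FPKM in KO and 15.2, 15.6 and 16.4 FPKM in WT cochleae at 5 months, and 14.9, 11.6 and 14.3 FPKM in KO and 12.7, 14.6 and 12.9 FPKM in WT cochleae at 8 months. Its change was −0.36 ± 0.096 at 5 months (adjusted p = 0.172), with no overlap. Slit3, its relative, had 9.59, 9.58 and 9.76 FPKM in KO and 9.55, 9.67 and 11.5 FPKM in WT cochleae at 5 months, and 11, 8.12 and 11.1 FPKM in KO and 8.34, 10.3 and 10.2 FPKM in WT cochleae at 8 months, and its groups overlapped at both ages.

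The Robo receptors of the Slits were measured in the same libraries. Robo1 had 7.27, 7.89 and 9.79 FPKM in KO and 9.22, 8.06 and 9.9 FPKM in WT cochleae at 5 months, and 7.73, 7.27 and 8.88 FPKM in KO and 7.25, 9.89 and 7.53 FPKM in WT cochleae at 8 months. Robo2 had 3.07, 2.12 and 4.0 FPKM in KO and 3.97, 3.75 and 2.57 FPKM in WT cochleae at 5 months, and 3.73, 3.29 and 2.21 FPKM in KO and 3.55, 3.71 and 4.8 FPKM in WT cochleae at 8 months. Robo4, which is read mainly in endothelium, had 6.63, 8.14 and 6.2 FPKM in KO and 6.14, 6.28 and 6.75 FPKM in WT cochleae at 5 months, and 6.39, 6.67 and 6.31 FPKM in KO and 6.78, 6.41 and 6.64 FPKM in WT cochleae at 8 months. All 3 overlapped between genotypes at both ages, and none had an unadjusted p under 0.05 in any contrast.

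Sema3e had the lowest p of all members at 8 months and averaged over ages. It encodes a secreted semaphorin that binds Plxnd1 directly, and lies at chr5:14025276-14256689 (mm9, 17 exon blocks). Sema3e had 7.8, 7.23 and 8.57 FPKM in KO and 9.62, 10.7 and 11.8 FPKM in WT cochleae at 5 months, and 6.55, 6.75 and 8.61 FPKM in KO and 12, 11.3 and 10.4 FPKM in WT cochleae at 8 months. All 6 KO values, at most 8.61 FPKM, lay under all 6 WT values, at least 9.62 FPKM. The change was −0.42 ± 0.12 at 5 months (adjusted p = 0.174), −0.59 ± 0.12 at 8 months (adjusted p = 0.422) and −0.51 ± 0.082 averaged over ages (adjusted p = 0.0648), a fold of 0.702 on the scale of FPKM + 0.5. The averaged change was −0.42 with the central glial level and −0.41 with the neutrophil level as a covariate, and passed the adjusted threshold without F27 (−0.57, adjusted p = 0.0308) and with Xist as a covariate (−0.51, adjusted p = 0.0474), while over all alternatives the adjusted p was 0.0308 to 0.832. Plxnd1, its receptor, had no unadjusted p under 0.05 in any contrast.

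Sema3e, Ephb3 and Unc5a were the 3 members whose KO values lay under the WT values at each age, which is 4.55% of the members tested, against 2.01% of all genes. No member lay above at both ages, against 0.805% of all genes. Ephb3, a receptor of B-type ephrins (chr16:21204868-21223377 in mm9), had 4.83, 5.51 and 5.56 FPKM in KO and 5.69, 6.34 and 6.39 FPKM in WT cochleae at 5 months, and 5.67, 5.18 and 5.95 FPKM in KO and 6.72, 7.16 and 6.38 FPKM in WT cochleae at 8 months. Its change was −0.20 ± 0.085 at 5 months (adjusted p = 0.265), −0.25 ± 0.085 at 8 months (adjusted p = 0.911) and −0.22 ± 0.060 averaged over ages (adjusted p = 0.165), and it stayed at −0.22 with the central glial level as a covariate. Unc5a, named after its values were seen, had 1.9, 2.1 and 1.89 FPKM in KO and 4.27, 2.27 and 2.49 FPKM in WT cochleae at 5 months, and 1.72, 1.84 and 1.97 FPKM in KO and 2.21, 2.25 and 2.6 FPKM in WT cochleae at 8 months. Unc5a (chr13:55050793-55107379 in mm9) shares exon sequence with Hk3 on the other strand, and whether the authors' quantification used strand is not stated, so its FPKM may hold reads of Hk3. Its averaged change was −0.38 ± 0.13 (adjusted p = 0.226), and −0.25 without E1, where it stood at 4.27 FPKM.

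The promoters of these 3 members are shown because their RNA separated the genotypes at both ages. Each is the RefSeq window of build GRCm38.p6 that runs from 250 bases before to 50 bases after the start site, written 5′ to 3′ on the strand of the gene, with matches to 3 motifs on either strand in capitals. The motifs were AP-1 (TGANTCA), bound by Jun proteins that JNK phosphorylates, CRE (TGACGTCA) and the GC box (GGGCGG), and in these windows no match of a motif shares bases with a match of another. The windows are chr5:14025026-14025325 for Sema3e, chr16:21204545-21204844 for Ephb3 and chr13:54949161-54949460 for Unc5a, all on the plus strand.
Sema3e: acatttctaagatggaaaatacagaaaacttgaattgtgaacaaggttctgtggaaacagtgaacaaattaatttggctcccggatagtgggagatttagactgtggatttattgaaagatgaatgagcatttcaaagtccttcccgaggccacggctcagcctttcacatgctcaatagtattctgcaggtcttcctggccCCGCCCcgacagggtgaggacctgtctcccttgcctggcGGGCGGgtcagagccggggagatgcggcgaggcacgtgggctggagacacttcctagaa
Ephb3: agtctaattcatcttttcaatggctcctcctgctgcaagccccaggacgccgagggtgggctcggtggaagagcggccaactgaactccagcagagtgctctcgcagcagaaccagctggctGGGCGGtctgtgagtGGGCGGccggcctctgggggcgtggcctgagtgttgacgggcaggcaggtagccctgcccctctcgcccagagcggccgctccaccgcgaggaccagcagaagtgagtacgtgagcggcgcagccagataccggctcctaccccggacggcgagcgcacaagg
Unc5a: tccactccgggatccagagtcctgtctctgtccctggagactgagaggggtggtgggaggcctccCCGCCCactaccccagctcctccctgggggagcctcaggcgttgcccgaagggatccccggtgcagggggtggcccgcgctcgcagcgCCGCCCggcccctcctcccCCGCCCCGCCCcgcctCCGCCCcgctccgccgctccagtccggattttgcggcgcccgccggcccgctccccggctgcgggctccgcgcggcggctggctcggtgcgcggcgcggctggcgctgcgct
All capitals are GC boxes, with 2 in Sema3e, 2 in Ephb3 and 5 in Unc5a, some of which run into each other. The GC box was found in 72.0% of 75 promoter windows of the 59 members that matched by symbol, against 35.7% of 32851 windows of all genes. The windows of all genes were neither limited to genes expressed here nor matched for GC content, so these shares do not compare like promoters. AP-1 was found in 4.0% of the members' windows, against 7.81% of all windows, and CRE in 1.33%, against 1.79%. A match is a description of the letters and no evidence of binding.

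Sema4b was the member with the lowest p at 5 months and the clearest one in the other direction. It encodes a transmembrane semaphorin (chr7:87331727-87371410 in mm9). Sema4b had 8.28, 7.7 and 7.16 FPKM in KO and 5.09, 5.67 and 4.73 FPKM in WT cochleae at 5 months, and 7.1, 6.9 and 5.72 FPKM in KO and 5.95, 6.38 and 6.49 FPKM in WT cochleae at 8 months. The KO values lay above the WT values at 5 months, by 0.54 ± 0.099 or 1.45-fold (adjusted p = 0.115), and overlapped with them at 8 months. Leaving out a library moved the change at 5 months between 0.48 and 0.60, and it was 0.36 with the central glial and 0.37 with the neutrophil level as a covariate. The difference between ages was −0.48 ± 0.14 (adjusted p = 0.876).

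Sema4a, a semaphorin known from immune cells and named here after its values were seen, had 15.8, 7.29 and 8.57 FPKM in KO and 5.68, 4.53 and 4.46 FPKM in WT cochleae at 5 months, and 14.1, 5.48 and 4.57 FPKM in KO and 6.64, 5.23 and 8.23 FPKM in WT cochleae at 8 months. It was highest in E7 and F5, the 2 libraries with the highest neutrophil marker sums, and its change of 0.97 ± 0.39 at 5 months (adjusted p = 0.237) was −0.26 with the neutrophil level as a covariate and 0.65 without E7. The neutrophil level did not overlap between KO and WT at 5 months, so it and genotype cannot be told apart there. What lies behind the Sema4a values was not tested. Sema4c, the ligand of Plxnb2, had 26.2, 26.6 and 30.8 FPKM in KO and 27.6, 29.8 and 35.1 FPKM in WT cochleae at 5 months, and 23.4, 22.6 and 25.8 FPKM in KO and 27.7, 29.1 and 25.8 FPKM in WT cochleae at 8 months. Its change averaged over ages was −0.17 ± 0.070 (adjusted p = 0.267).

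**Figure D3:**
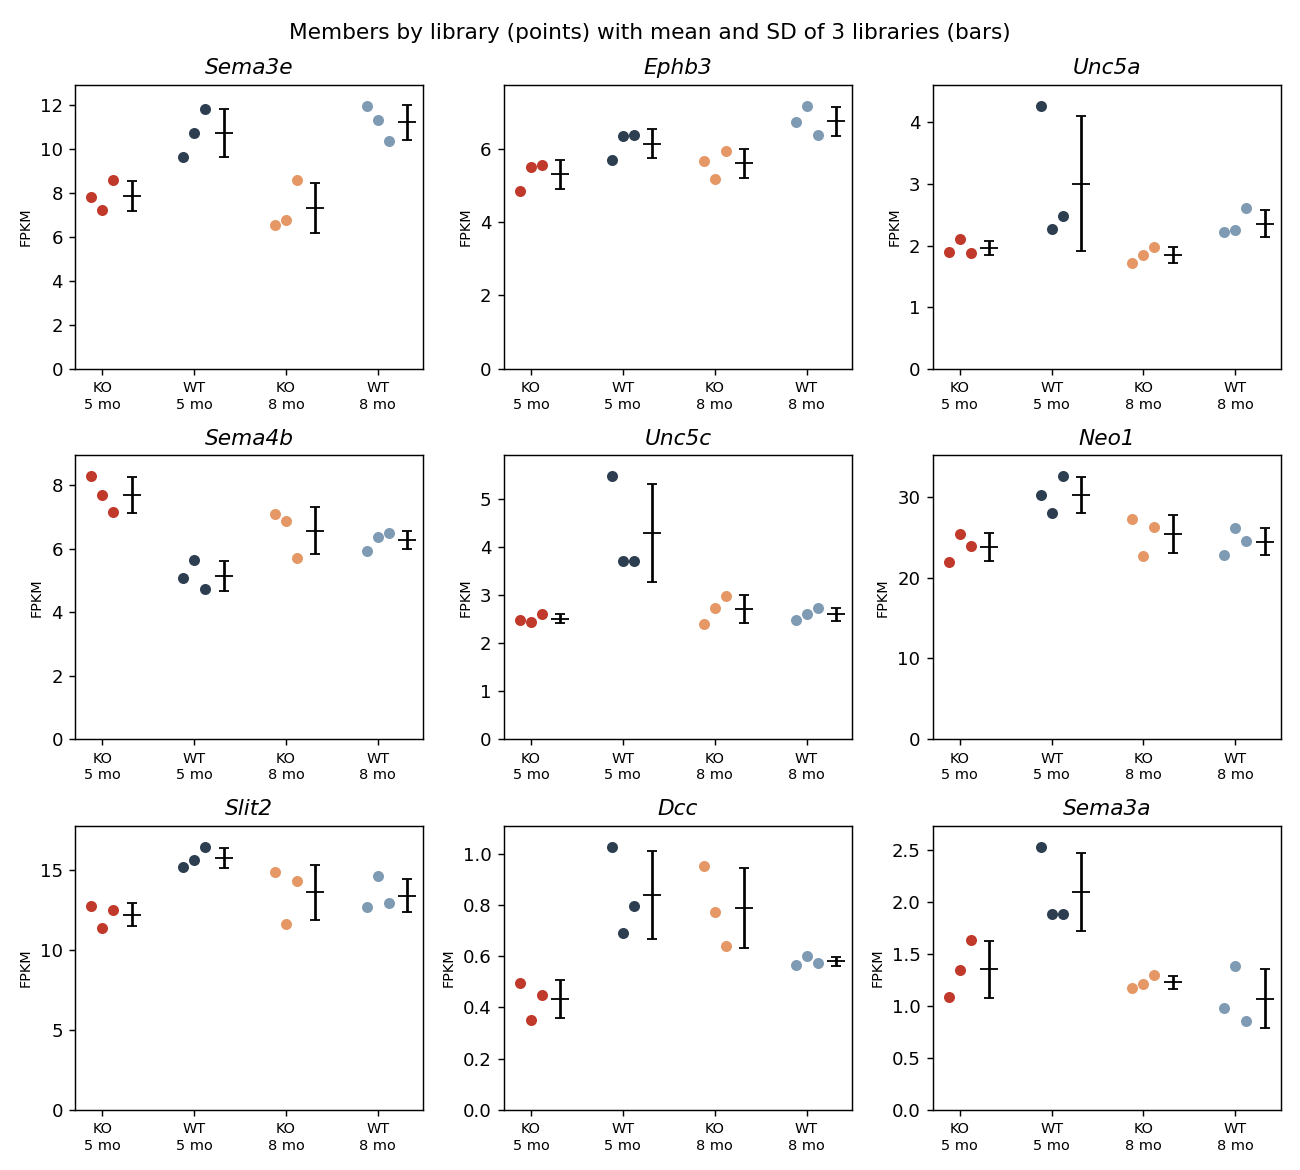
FPKM of Sema3e, Ephb3, Unc5a, Sema4b, Unc5c, Neo1, Slit2, Dcc and Sema3a in each library (points), with the mean and SD of 3 libraries (black bars), for KO and WT at 5 and 8 months. Sema3e is at 6.55 to 8.61 FPKM in KO and 9.62 to 12 FPKM in WT, and Dcc lies under WT at 5 months and above WT at 8 months.

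The transmembrane class 6 semaphorins, which signal through A-type plexins, all had changes below 0 at both ages, with medians of −0.28 at 5 months and −0.11 at 8 months. That of Sema6b at 8 months was −0.02 ± 0.10. Sema6d had 18.1, 17.5 and 17.8 FPKM in KO and 24.6, 20.7 and 21.9 FPKM in WT cochleae at 5 months, and 17.4, 15.3 and 18.9 FPKM in KO and 18.6, 19.9 and 17.6 FPKM in WT cochleae at 8 months. Sema6c had 12.4, 10.9 and 14.4 FPKM in KO and 16, 14.9 and 16.8 FPKM in WT cochleae at 5 months, and 12, 13.1 and 13 FPKM in KO and 13.8, 15 and 12.6 FPKM in WT cochleae at 8 months. Sema6a had 4.21, 4.6 and 4.87 FPKM in KO and 5.37, 5.32 and 5.68 FPKM in WT cochleae at 5 months, and 4.35, 5.01 and 4.95 FPKM in KO and 5.7, 5.57 and 4.9 FPKM in WT cochleae at 8 months. At 5 months the KO values of these 3 lay under the WT values, with changes of −0.32 ± 0.087 for Sema6d (adjusted p = 0.174), −0.33 ± 0.10 for Sema6c (adjusted p = 0.190) and −0.24 ± 0.088 for Sema6a (adjusted p = 0.221). With the neutrophil level as a covariate the change of Sema6a was −0.02.

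Sema5a and Sema5b are the class 5 semaphorins, with thrombospondin repeats and A-type plexins as receptors. Sema5a had 12.1, 12 and 13.8 FPKM in KO and 14.4, 15.2 and 15.9 FPKM in WT cochleae at 5 months, and 10.9, 9.9 and 12.6 FPKM in KO and 12.8, 12.4 and 11.9 FPKM in WT cochleae at 8 months. Its change was −0.26 ± 0.090 at 5 months (adjusted p = 0.217), with no overlap. Sema5b had 0.684, 0.56 and 0.648 FPKM in KO and 0.975, 0.679 and 0.803 FPKM in WT cochleae at 5 months, and 0.614, 0.795 and 0.644 FPKM in KO and 0.583, 0.887 and 0.542 FPKM in WT cochleae at 8 months, with overlap at both ages.

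Sema3a, the ligand of Nrp1, had 1.09, 1.34 and 1.63 FPKM in KO and 2.53, 1.88 and 1.88 FPKM in WT cochleae at 5 months, and 1.18, 1.21 and 1.3 FPKM in KO and 0.977, 1.39 and 0.85 FPKM in WT cochleae at 8 months. Its change at 5 months was −0.49 ± 0.17 (adjusted p = 0.216) with no overlap, and −0.37 without E1. The A-type plexins are those with which class 3 semaphorins signal. Plxna1 had 15.8, 17 and 17 FPKM in KO and 16, 15.4 and 18.5 FPKM in WT cochleae at 5 months, and 13.6, 12.1 and 15.4 FPKM in KO and 14.2, 17.6 and 16.6 FPKM in WT cochleae at 8 months. Plxna3 had 3.78, 4.06 and 4.76 FPKM in KO and 7.29, 4.84 and 4.59 FPKM in WT cochleae at 5 months, and 4.5, 4.32 and 4.59 FPKM in KO and 4.42, 4.3 and 3.91 FPKM in WT cochleae at 8 months. The groups overlapped at both ages for both plexins, and the change of Plxna3 at 5 months, −0.35 ± 0.15 (adjusted p = 0.261), was −0.15 without E1.

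Among the ephrins the 3 B-type members, which are transmembrane proteins, had changes below 0 at both ages, with medians of −0.31 at 5 months and −0.22 at 8 months. That of Efnb1 at 8 months rounded to 0, with a standard error of 0.11. Efnb2 had 20.1, 17.9 and 22.5 FPKM in KO and 22.9, 25.6 and 26.8 FPKM in WT cochleae at 5 months, and 18.6, 20.3 and 23.3 FPKM in KO and 25.7, 25.4 and 21.8 FPKM in WT cochleae at 8 months. Its change was −0.31 ± 0.11 at 5 months (adjusted p = 0.217), with no overlap, and −0.27 ± 0.078 averaged over ages (adjusted p = 0.193). Efnb1, another B-type ephrin, had 9.8, 10.6 and 10.2 FPKM in KO and 13.1, 10.03 and 12.6 FPKM in WT cochleae at 5 months, and 12.4, 11.4 and 11 FPKM in KO and 10.3, 12.6 and 12.2 FPKM in WT cochleae at 8 months, with overlap at both ages.

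The A-type ephrins, held by a lipid anchor, had no common direction, with a median of 0.05 at 5 months. Efna1 had 16, 18.5 and 18.5 FPKM in KO and 15.3, 16.8 and 17.7 FPKM in WT cochleae at 5 months, and 18.3, 18.3 and 18.2 FPKM in KO and 19.1, 22.6 and 18.4 FPKM in WT cochleae at 8 months. Efna2 had 2.28, 2.74 and 2.36 FPKM in KO and 2.2, 2.05 and 1.87 FPKM in WT cochleae at 5 months, and 2.64, 2.91 and 2.21 FPKM in KO and 2.0, 2.22 and 2.18 FPKM in WT cochleae at 8 months. Efna5 had 6.72, 7.12 and 7.62 FPKM in KO and 7.44, 9.02 and 7.62 FPKM in WT cochleae at 5 months, and 9.0, 9.0 and 8.25 FPKM in KO and 10.3, 8.64 and 8.03 FPKM in WT cochleae at 8 months. Efna2 was higher in every KO library than in any WT library at 5 months, and its averaged change was 0.22 ± 0.082 (adjusted p = 0.240).

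The Eph receptors are tyrosine kinases that bind the ephrins. Epha4, the receptor of Efnb2 in spiral ganglion fasciculation in the mouse embryo, had 5.74, 6.35 and 6.88 FPKM in KO and 6.47, 7.18 and 8.58 FPKM in WT cochleae at 5 months, and 5.83, 5.48 and 7.49 FPKM in KO and 6.54, 7.44 and 6.05 FPKM in WT cochleae at 8 months. Epha7, the most abundant of its class, had 9.22, 9.52 and 10.4 FPKM in KO and 10.01, 10.2 and 12.4 FPKM in WT cochleae at 5 months, and 7.44, 8.13 and 11.8 FPKM in KO and 11, 10.01 and 8.25 FPKM in WT cochleae at 8 months. Ephb4, which marks veins, had 15.7, 17.1 and 15.4 FPKM in KO and 17.4, 15.2 and 17.7 FPKM in WT cochleae at 5 months, and 16.3, 17.1 and 18.3 FPKM in KO and 15.8, 21 and 15.3 FPKM in WT cochleae at 8 months. Ephb6, a receptor without kinase activity, had 7.12, 6.42 and 8.82 FPKM in KO and 8.58, 7.12 and 9.52 FPKM in WT cochleae at 5 months, and 6.99, 7.56 and 6.63 FPKM in KO and 6.18, 7.84 and 7.32 FPKM in WT cochleae at 8 months. All 4 overlapped between genotypes at both ages. Of the 8 A-type receptors tested, 7 had a change below 0 at 5 months with a median of −0.18, and none had an unadjusted p under 0.05.

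E1 and E4, both WT at 5 months, stood apart for several members. Of 66 members tested, 20 were highest in E1 and 18 in E4, against at most 7 in any other library. How many of all genes were highest there was not counted. The members' median log2 deviation from their own mean over 12 libraries was 0.16 in E1 and 0.15 in E4, against −0.01 and 0.0 over all genes. E1 and E4 also had the highest central glial marker sums, 191 and 209 FPKM, and the part of these cells was not tested. Epha8, an Eph receptor named after its values were seen, was at 4.85 FPKM in E1 and at most at 1.29 FPKM in the other 11 libraries. Sema4f was at 7.34 FPKM in E1 and 2.18 to 4.66 FPKM elsewhere.

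At 8 months the members had a median change of −0.03, against a median of all genes that rounds to 0. Of the 66 members 40 were below 0, against 8367 of all 16272 genes. At an unadjusted p under 0.05, 2 members (3.03%) were lower, Sema3e and Ephb3, against 2.97% of all genes, and 0 were higher, against 2.21% of all genes. Limma called 0 members with adjustment, and 0.0123% of all genes. KO lay under WT without overlap in 5 members (Efna1, Epha5, Ephb3, Sema3e and Unc5a), where 6.18% of all genes did, and above in 1, Dcc, where 4.11% of all genes did. Next in p at 8 months came Plxna1 (−0.23 ± 0.11), Efnb2 (−0.22 ± 0.11), Sema4c (−0.20 ± 0.099), Efna2 (0.22 ± 0.12), Sema7a (−0.16 ± 0.084) and Sema6a (−0.16 ± 0.088), all with an adjusted p of 0.963. Without F27, 9 members were lower at this age, against 4.47% of all genes, and 1 was higher, against 2.62%. Without E4 or F12 4 members were lower, against 2.65% and 2.55% of all genes, and without F10 or F6 1 was, against 2.26% and 2.08%. Of the markers, all 10 central glial genes (median −0.35) and 9 of 12 neuron genes (median −0.10) were below 0 at 8 months, all 12 neutrophil genes were above 0 (median 0.86), and 6 of 10 B cell genes were below 0 (median −0.12), and their part in these values was not tested. Hair cell, Schwann cell and macrophage markers had medians of 0.15, 0.06 and 0.16. Those of endothelium, osteoblast lineage and cochlear tissue were −0.02, −0.01 and 0.01.

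**Figure D4:**
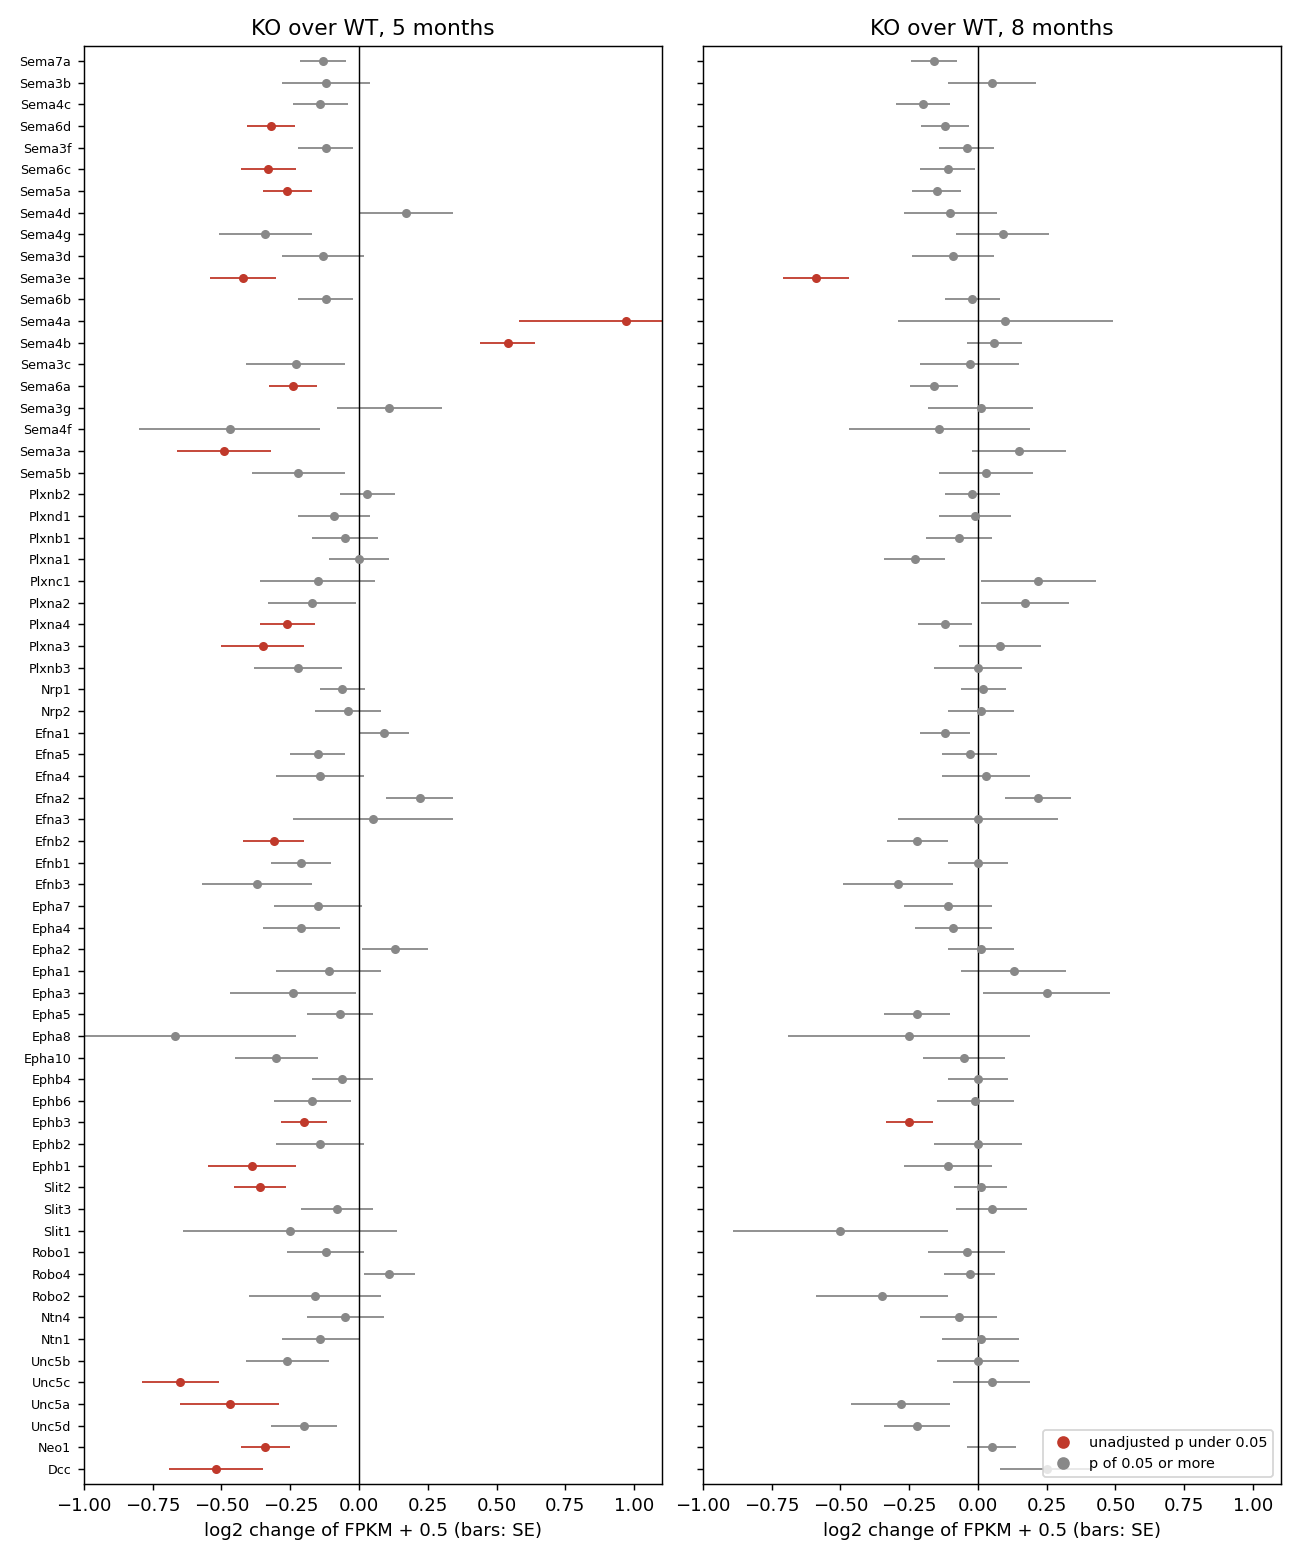
Log2 change of FPKM + 0.5 in KO over WT at 5 months (left) and 8 months (right) for the 66 members tested, by family (rows), with the standard error of limma as bars and an unadjusted p under 0.05 in red. At 5 months 55 of 66 lie below 0, at 8 months 40, against 9004 and 8367 of all 16272 genes.

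Averaged over ages, the members had a median change of −0.11, against −0.02 over all genes. At an unadjusted p under 0.05, 17 members (25.8%) were lower, against 9.66% of all genes, and 2 were higher, Sema4b and Efna2, against 7.75% of all genes. Limma called 0 members with adjustment and 0.0799% of all genes. This average holds the same libraries as the contrasts at each age, so it is no separate support. With the central glial level as a covariate, 2 of the 17 remained lower, Ephb3 and Sema3e, and the median was −0.019. In that setting 3.14% of all genes were lower, so the members' count was at the share of all genes. Without E7 and F5, 8 remained, against 5.71% of all genes, and 10 were lower without E4, F10 or F18 (6.98% to 9.49% of all genes), 11 without E7 (7.03%) and 9 without F6 (7.83%). The count of higher members was 1 without E4, F1, F18 or F6, against 6.61%, 4.92%, 9.69% and 7.64% of all genes.

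The difference of the genotype effect between ages, the change at 8 months minus that at 5 months, had a median of 0.10 over members and 0.01 over all genes. At an unadjusted p under 0.05, 5 members were higher (Unc5c, Dcc, Neo1, Slit2 and Sema3a), against 3.02% of all genes, and 1 was lower, Sema4b, against 1.65% of all genes. These are 7.58% and 1.52% of the members, and the counts moved to 8 higher without E3 or F6, against 3.58% and 2.16% of all genes, and to 3 lower without F5, against 6.18%. The differences were 0.70 ± 0.20 for Unc5c, 0.76 ± 0.24 for Dcc, 0.39 ± 0.13 for Neo1, 0.37 ± 0.14 for Slit2 and 0.64 ± 0.24 for Sema3a. Each had an adjusted p of 0.876, and limma called 0 members and 0.00615% of all genes. In this difference 10 of 12 neuron markers (median 0.26), 9 of 10 central glial markers (0.17) and all 8 Schwann cell markers (0.15) were above 0, while all 12 neutrophil markers (−4.05) and all 10 B cell markers (−2.36) were below 0. Of the hair cell markers 7 of 10 were above 0 (0.30), and the medians of the other lists were −0.02 to 0.05. The part of these cell types in the members' values was not tested.

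In WT cochleae 46 of 66 members had a change below 0 for 8 over 5 months, against 7482 of all 16272 genes. The median was −0.10, against 0.02 over all genes. At an unadjusted p under 0.05, 7 members (10.6%) were lower at 8 months, against 3.55% of all genes, and 2 were higher, Efna1 and Sema4b, against 4.29% of all genes. The lower ones were Unc5c (−0.61 ± 0.14), Sema3a (−0.73 ± 0.17), Neo1 (−0.30 ± 0.090), Sema5a (−0.28 ± 0.090), Sema6d (−0.25 ± 0.087), Slit2 (−0.23 ± 0.096) and Plxna3 (−0.34 ± 0.15), and 4 members were lower without E1 or without F12, each against 1.98% of all genes. None was higher without E1 or F10, and 1 without E4 or F12, and the shares of all genes in these settings are not given here. With adjustment limma called 0 members and 0.0123% of all genes. Over the same libraries 9 of 10 central glial markers (median −0.12) and 7 of 8 Schwann cell markers (−0.23) were below 0, and all 12 neutrophil markers (2.28) and 9 of 10 B cell markers (0.99) were above 0, and their part was not tested. The medians of the other marker lists were 0.01 to 0.07. This contrast shares the 5-month WT libraries with the genotype contrast at 5 months. All WT codes start with E at 5 months and with F at 8 months, while KO at 5 months holds E7, F18 and F19. What these letters stand for is not given, so in WT they cannot be told apart from age. They are also spread unevenly between the genotypes at 5 months, while at 8 months all codes start with F.

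In KO cochleae the median for 8 over 5 months was 0.03, against 0.01 over all genes. At an unadjusted p under 0.05, 2 members were higher at 8 months, Dcc (0.46 ± 0.17) and Efna5 (0.27 ± 0.10), against 8.85% of all genes, and 1 was lower, Plxna1 (−0.28 ± 0.11), against 3.75% of all genes. Limma called 0 members with adjustment, and 0.0% of all genes. The counts rested on single libraries, with 0 to 5 higher and 0 to 5 lower members when 1 library was left out: none was higher without F5, 5 were higher without F19 (8.29% of all genes), none was lower without F18 and 5 were lower without F27 (5.08% of all genes). All 12 neuron markers were above 0 in this contrast (median 0.34), and all 12 neutrophil markers (−1.76) and all 10 B cell markers (−1.31) were below 0, and their part was not tested. Of the hair cell markers 7 of 10 were above 0 (0.30), and the other lists had medians of −0.06 to 0.12.

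Genes that act below or beside the receptors were counted in the same way. Of 55 genes of downstream signalling, 8 were lower and 2 higher in KO at 5 months at an unadjusted p under 0.05, against 9.93% and 8.24% of all genes, with a median of −0.12. At 8 months 2 were lower and 0 higher, against 2.97% and 2.21% of all genes, with a median of −0.07. The 3 lowest in p at 5 months were Chn1, a Rac inhibitor below Epha4 (−0.41 ± 0.089, adjusted p = 0.146), Srgap3, a GTPase regulator that binds Robo (−0.44 ± 0.11, adjusted p = 0.163), and Ptk2, the focal adhesion kinase (−0.25 ± 0.071, adjusted p = 0.186). Chn1 had 14.8, 15.1 and 15.4 FPKM in KO and 21.7, 19.7 and 19.5 FPKM in WT cochleae at 5 months, and 14.6, 18.4 and 18.2 FPKM in KO and 19.1, 17 and 18.6 FPKM in WT cochleae at 8 months. KO lay under WT without overlap at 5 months and overlapped at 8 months. At 8 months the 3 lowest in p were Ablim1, an actin-binding protein (−0.36 ± 0.095, adjusted p = 0.785), Rnd1, a GTPase that binds plexins (−0.34 ± 0.10, adjusted p = 0.911), and Srgap1 (−0.20 ± 0.095, adjusted p = 0.963).

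Of 26 other guidance ligands and co-receptors, 8 were lower and 1 higher in KO at 5 months at an unadjusted p under 0.05, against 9.93% and 8.24% of all genes, with a median of −0.20. At 8 months 2 were lower and 0 higher, against 2.97% and 2.21% of all genes, with a median of −0.05. At 5 months Cntn1, an adhesion protein of axons (−0.43 ± 0.11, adjusted p = 0.167), Flrt3, a ligand of Unc5 receptors (−0.50 ± 0.17, adjusted p = 0.203), and Rgmb, a ligand of Neo1 (−0.19 ± 0.065, adjusted p = 0.206), were lowest in p. At 8 months these were Ntng1, Rgmb (−0.22 ± 0.065, adjusted p = 0.911) and Dscam (−0.28 ± 0.14, adjusted p = 0.963). Ntng1, a membrane-anchored netrin, had 6.65, 5.5 and 6.95 FPKM in KO and 7.33, 7.38 and 7.64 FPKM in WT cochleae at 5 months, and 5.08, 5.62 and 5.78 FPKM in KO and 8.42, 7.95 and 7.49 FPKM in WT cochleae at 8 months. Its KO values lay under those of WT at both ages, and its change at 8 months was −0.50 ± 0.091 (adjusted p = 0.422).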

How the data were processed

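Cochlear RNA was prepared by the authors as 12 stranded polyA libraries, and quantified with Cufflinks 2.2.1 after alignment by TopHat2 2.0.10 to build mm9, per the labels. The deposited table holds FPKM per gene and library as the authors' Cufflinks run gave them. Many values had lost the decimal point. It was put back for each gene and group at the 1 placing whose mean over 3 libraries matched the authors' group FPKM within a relative 2e-05, which changed 55.2% of values and left out 33 of 23951 genes, none of them a member. Those averaging 0.5 FPKM or more entered 1 limma 3.58.1 fit (R 4.3.3) of log2(FPKM + 0.5) over 4 groups, using its variance trend, and p in 6 contrasts was adjusted by Benjamini-Hochberg over all genes at 0.05. The limma fit and the placing of decimal points were each tested on simulated data. The authors' own comparisons hold fold changes and p-values and were not used, except for their group FPKM. Each library carries its own code, and replicates were taken as separate animals, which the sample labels used here do not state. FPKM carry no read numbers, so precision is known only from the spread of 3 libraries.

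Values in every library are given for the 8 members lowest in p in each KO and WT contrast and the average, the 5 lowest in the other 3 contrasts, the 2 most abundant of each family, and 13 members known from cochlear wiring, and changes for the 3 lowest in p of each pathway list at each age. The members, lists and rules were chosen with earlier results of these data known. Gene positions are from the authors' mm9 annotation and promoter windows from RefSeq (GRCm38.p6). Alternatives were pseudocount, minimum FPKM, scaling, variance trend, array weights, compared groups alone, covariates for Xist, neutrophil and central glial level, and libraries left out. Tables and figures were made in Python 3.11.15 with pandas 2.3.3, NumPy 2.4.6 and Matplotlib 3.10.9.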

Additional observations from a re-analysis of the deposited data

Results flagged for a closer look

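Dcc, the netrin receptor, lay on opposite sides of WT at the 2 ages. Every KO library lay above every WT library at 8 months, with 0.951, 0.773 and 0.638 FPKM in KO and 0.567, 0.60 and 0.572 FPKM in WT, and every KO library lay under every WT library at 5 months, with 0.496, 0.352 and 0.446 FPKM in KO and 1.03, 0.691 and 0.795 FPKM in WT. The difference of the 2 changes was 0.76 ± 0.24 on the log2 scale, for which limma gave an adjusted p of 0.876, so it did not pass the test across all genes. Over the alternatives its adjusted p was 0.387 to 0.992, and without 1 library the difference was 0.66 to 0.85.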

How the results depend on the processing

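With adjustment, limma called no member in any contrast under the alternatives, except Sema3e averaged over ages, where the count was 1 with the Xist covariate and 0 to 1 with a library left out. Single members were followed in 65 pairs of gene and contrast, those lowest in p or with an unadjusted p under 0.05 as reported. None of these had passed the threshold, and most alternatives keep most libraries, so little movement was likely beforehand. Of 1662 values of these pairs under alternatives, 1657 kept their direction and their side of the threshold, 2 passed it (both Sema3e) and 3 turned their sign. These were Sema4a at 5 months (−0.26 with the neutrophil covariate), and Efnb3 (0.02) and Ephb1 (0.01) averaged over ages with the central glial covariate. The counts of members at an unadjusted p under 0.05 moved more, and the percentages in brackets are the shares of all genes in the same setting. A count without such a share cannot be set against all genes.

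At 5 months 16 members were lower in KO (9.93%), but 3 with the central glial covariate (3.14%), 8 with the neutrophil covariate (5.16%), 9 without E7 and F5 (5.97%), 7 without E1, E7 and F5 (4.16%), and 9 to 20 with a library left out (5.6% to 11.1%). The median of −0.154 was −0.062 with the central glial covariate and −0.236 to −0.126 with a library left out. The 2 higher members (8.24%) were 1 with the Xist (6.18%), central glial (1.67%) or neutrophil covariate (3.31%). With a library left out they were 1 to 2 (3.93% to 9.92%). At 8 months the 2 lower members (2.97%) were 6 with the Xist covariate (2.99%), 4 with the compared groups alone (2.73%) and 1 to 9 with a library left out (2.08% to 4.47%). The 0 higher ones (2.21%) were 1 without the variance trend (2.06%) and 0 to 1 with a library left out (1.33% to 3.27%).

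Averaged over ages, the 17 lower members (9.66%) were 2 with the central glial covariate (3.14%, median of members −0.019), 6 with the neutrophil covariate (6.45%), 8 without E7 and F5, with E1 (5.71%) or without it (4.57%), and 9 to 18 with a library left out (6.98% to 10.9%). The 2 higher ones (7.75%) were 1 with the central glial covariate (1.99%) or quantile scaling (7.2%) and 0 with the neutrophil covariate (4.34%). With a library left out they were 1 to 3 (4.53% to 9.69%). For the difference between ages, the 5 higher members (3.02%) were 2 without E7 and F5, with E1 (3.6%) or without it (3.02%), and 4 to 8 with a library left out (2.1% to 4.39%), and the 1 lower was 2 in these settings and with array weights, and 1 to 3 with a library left out.

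For 8 over 5 months in KO, the 2 higher members were 1 with the Xist covariate or a minimum of 1 FPKM, 0 without E7 and F5, with or without E1, and 0 to 5 with a library left out. The 1 lower was 2 with array weights, a minimum of 1 FPKM, the neutrophil covariate, no variance trend, pseudocount 1, or without E7 and F5, with or without E1, 3 with the central glial covariate, 4 with median ratio scaling and 0 to 5 with a library left out. For 8 over 5 months in WT, the 2 higher were 1 with the neutrophil covariate or without E1, E7 and F5 and 0 to 3 with a library left out, and the 7 lower (3.55%) were 4 without E1, E7 and F5 (1.51%) and 4 to 10 with a library left out (1.98% to 4.62%). The cause of these moves was not tested. No paired analysis was possible because the groups share no replicate numbers. Leaving out E1, E7 and F5 together was chosen after the data were seen.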
